A study of Mus musculus with 4 samples.

Results

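The SOX, forkhead and T-box genes examined here are 3 families of DNA-binding transcription factors, and their levels were compared between melanotropes and corticotropes, the pituitary cells that express Pomc. Members were all genes of the deposited table named Sox, Foxa to Foxs or Tbx followed by a number, and Eomes. Tbx19 and Foxl2 were left out. This gave 75 genes with 109 transcripts, of 24063 genes with 33072 transcripts in all. There were 19 SOX, 43 forkhead and 13 T-box genes. Melanotropes were sorted from the dissected intermediate lobe and corticotropes from the anterior lobe, with 2 RNA-seq libraries of each. Both came from mice of strain C57B6 that carry EGFP under Pomc control, and GFP-positive cells were taken from each lobe, so GFP does not part the cell types and the dissection does. Age, sex and animal numbers are not stated in the labels. Nothing in the labels says that replicates are separate sorts or animals, so p-values measure the spread between these libraries, which may be technical.

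SOX proteins bind DNA through an HMG box that bends the helix, and related members often act at the same sites with opposite or shared outcomes. In the pituitary, SOX2 marks the progenitor cells that line the cleft between the lobes, and SOX9 marks part of that pool. Forkhead proteins bind through a winged helix, and the FOXO group among them leaves the nucleus when insulin or growth factor signalling phosphorylates it. T-box proteins share the DNA-binding domain first described in Brachyury. The T-box factor TPIT, encoded by Tbx19, sets the POMC lineage in both cell types, and TBX2 and TBX3 are repressors in development.

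The labels were checked against defining markers. The 4 melanotrope markers (Pax7, Pcsk2, Drd2 and Oacyl) summed to 1505 and 1322 FPKM in melanotropes, against 219.9 and 164.7 FPKM in corticotropes. The 3 corticotrope markers (Crhr1, Avpr1b and Nr3c1) summed to 10.9 and 9.66 FPKM in melanotropes, against 196.6 and 205.7 FPKM in corticotropes. Hormone genes and markers of other pituitary lineages summed to 14.2 and 61.8 FPKM in melanotropes, against 5848 and 5615 FPKM in corticotropes. FPKM, fragments per kilobase of transcript scaled to the reads of a library, are given throughout after rescaling between libraries, for the longest transcript of each gene. The spacing of low values implied 219 and 234 reads per FPKM and kilobase in melanotropes, against 115 and 230.4 in corticotropes, so corticotrope replicate 1 was the least deeply read per unit. In bulk samples, fewer cells of a type and less RNA per cell cannot be told apart.

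Of the 75 genes, 26 reached 1 FPKM in at least 2 libraries and were tested, namely 8 SOX, 16 forkhead and 2 T-box genes. Sox9, Tbx3 and Tbx15 passed this filter only through melanotropes, so for these 3 a difference was built into the filter and their calls are no support. Sox2, Sox4, Foxk2, Foxj3, Foxo3, Foxo1, Foxn3 and Foxp1 were the 8 highest members in both cell types. Sox2 ranked 1 among the 75 in melanotropes and 5 in corticotropes, whereas Sox4 ranked 2 in melanotropes and 1 in corticotropes. Ranks compare FPKM levels, which are per length.

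**Figure D1:**
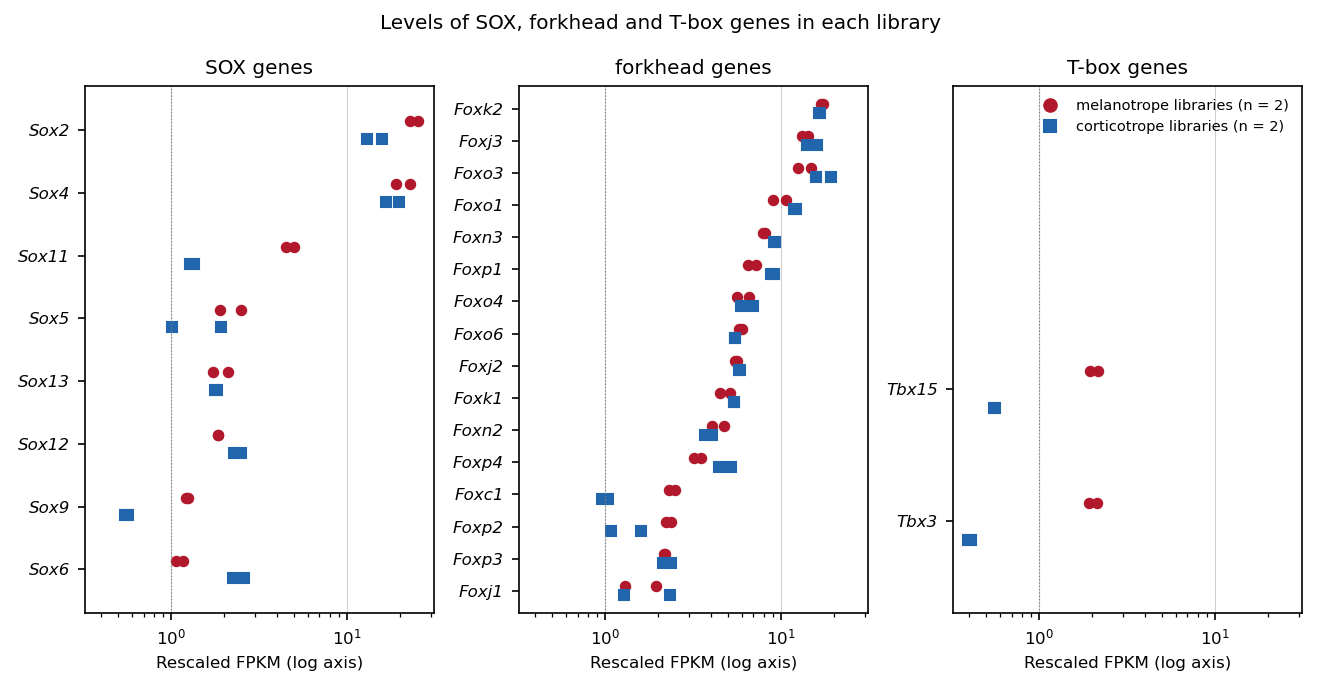
Rescaled FPKM of the 26 tested members on a log axis, with melanotrope and corticotrope libraries as separate points. Sox2 and Sox4 lie at the top in melanotropes, and Tbx3, Tbx15 and Sox9 are under 1 FPKM in both corticotrope libraries and in neither melanotrope library.

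Of the tested members, 7 were higher in melanotropes, namely Sox11, Tbx3, Tbx15, Foxc1, Sox2, Sox9 and Foxp2, and 3 were lower, namely Sox6, Foxp4 and Foxp1. Without Sox9, Tbx3 and Tbx15, 4 were higher and 3 lower of 23. These are calls of limma at an adjusted p under 0.05 over 13046 genes. The 10 called genes were 38.5% of the 26, against 37.2% called among all genes tested. Higher calls made up 26.9% of the members and 18.9% of all genes, and lower calls 11.5% of the members and 18.3% of all genes. The share called lies near the background, so the counts show nothing particular to these families. The median log2 fold change (melanotrope over corticotrope, on log2(FPKM + 1)) was -0.0024 over the 26 members and 0.00092 over all genes. The libraries of the cell types did not overlap for 19 of 26 members, 10 higher and 9 lower, against 71.1% of all genes, 35.7% higher and 35.4% lower. Without rescaling, the median of all genes was -0.42 and fold changes moved with it, to 0.26 for Sox2, 0.48 for Foxc1, 0.30 for Sox9, -0.77 for Foxp1 and -0.81 for Foxp4, all still called, and to 0.19 for Foxp2, which was not. On that scale 20 members were called, 6 higher and 14 lower, beside 939 higher and 8787 lower of all genes. The 11 members that this scale added to the calls were lower in melanotropes, namely the 4 FOXO genes, Foxj2, Foxj3, Foxk1, Foxk2, Foxn3, Foxp3 and Sox12.

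**Figure D2:**
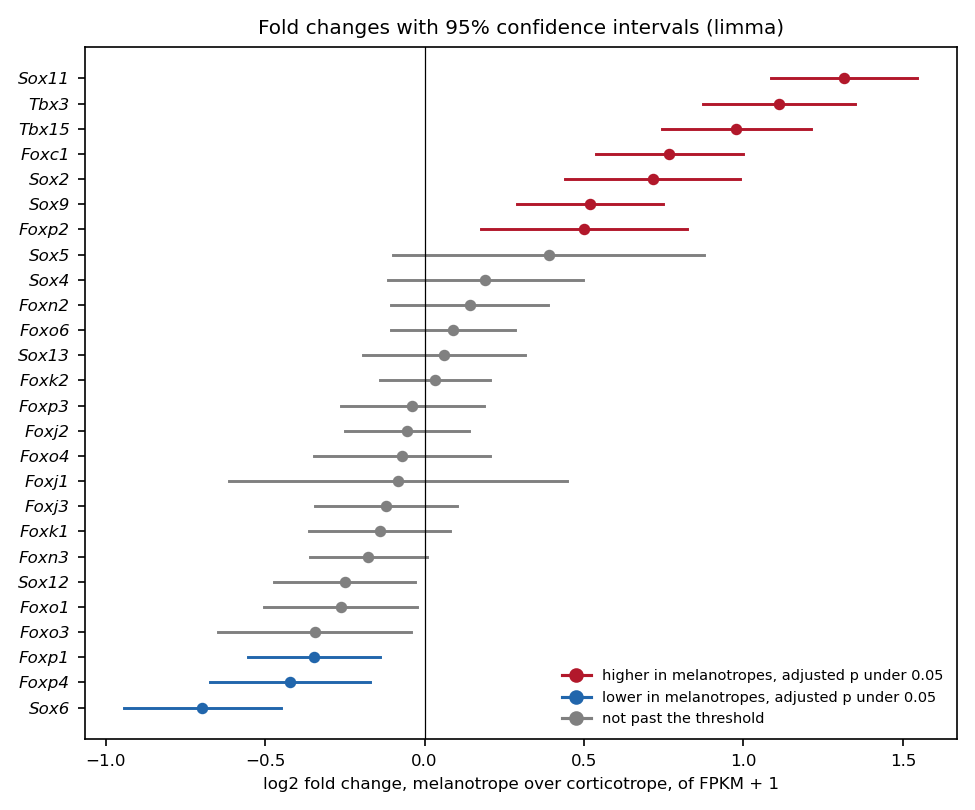
Log2 fold change of melanotropes over corticotropes on log2(FPKM + 1) for the 26 tested members, with 95% intervals from the limma fit. Called genes run from 1.32 (Sox11) to -0.70 (Sox6), and the other 16 genes were not called.

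Proximal promoters are shown for the 4 called genes with exactly 1 promoter in the RefSeq table (GRCm38.p6), which leaves no choice of promoter. The other called genes had none or more than 1 there. Each line gives the 250 bases before the start, 5′ to 3′ on the gene's strand, in lower case, with matches to the motifs named below in capitals. Sox2 is at chr3:34649745-34649994 (plus strand), Sox11 at chr12:27342719-27342968 (minus strand), Foxc1 at chr13:31806396-31806645 (plus strand) and Foxp4 at chr17:47924633-47924882 (minus strand).
Sox2: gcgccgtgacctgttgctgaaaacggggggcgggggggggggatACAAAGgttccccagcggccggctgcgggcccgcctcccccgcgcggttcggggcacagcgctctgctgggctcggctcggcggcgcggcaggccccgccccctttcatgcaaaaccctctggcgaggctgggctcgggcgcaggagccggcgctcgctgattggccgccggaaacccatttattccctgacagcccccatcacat
Sox11: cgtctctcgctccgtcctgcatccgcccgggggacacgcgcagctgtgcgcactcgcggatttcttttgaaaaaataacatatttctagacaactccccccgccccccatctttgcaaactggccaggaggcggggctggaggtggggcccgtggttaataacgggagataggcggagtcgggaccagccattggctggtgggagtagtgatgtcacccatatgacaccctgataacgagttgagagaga
Foxc1: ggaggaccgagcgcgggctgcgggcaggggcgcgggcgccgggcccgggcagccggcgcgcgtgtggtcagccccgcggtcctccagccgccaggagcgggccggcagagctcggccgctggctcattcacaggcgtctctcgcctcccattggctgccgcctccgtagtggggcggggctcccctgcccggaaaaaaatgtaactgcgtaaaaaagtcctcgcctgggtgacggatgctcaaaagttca
Foxp4: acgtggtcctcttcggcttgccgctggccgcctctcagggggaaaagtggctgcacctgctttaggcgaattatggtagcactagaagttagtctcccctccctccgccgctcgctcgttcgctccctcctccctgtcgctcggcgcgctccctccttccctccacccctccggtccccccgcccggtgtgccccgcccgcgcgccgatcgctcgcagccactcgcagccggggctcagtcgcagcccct
The G and C share was 72.0% for Sox2, 58.0% for Sox11, 70.8% for Foxc1 and 69.6% for Foxp4, against a median of 52.4% over the 32851 promoters of the table. They held 27, 17, 29 and 27 CpG in that order, against a median of 6. Over the 62 member promoters the medians were 59.8% G and C and 12.5 CpG. Sox11 lay under that G and C share, and all 4 lay above that CpG count. The 4 are CpG-rich promoters, as is common for developmental transcription factors. Both strands were searched for ACAAAG and ACAATG (SOX), TGTTTAC (forkhead), GGTGTGA (T-box) and TAATCC (the motif of PITX factors). The one match was ACAAAG in the Sox2 promoter, 206 bases before the start. ACAAAG was in 15 of 62 member promoters (24.2%), which belong to 49 member genes, and in 16.5% of all promoters. ACAATG was in 6 of 62 (9.68%) against 10.7% of all, TGTTTAC in 2 (3.23%) against 3.17%, GGTGTGA in 1 (1.61%) against 3.33%, and TAATCC in 3 (4.84%) against 6.25%. A match describes letters in this window and is not shown to be bound.

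Among the SOX genes, Sox2 (chr3:34650005-34652460) of the SOXB1 group maintains stem and progenitor cells in many tissues. It had 23.0 and 25.5 FPKM in melanotropes, against 13.02 and 15.8 FPKM in corticotropes. The 2 groups did not overlap, with melanotropes higher. Means were 24.2 ± 1.78 and 14.4 ± 1.95 FPKM (SD, n = 2 each), 1.68 times as high in melanotropes, with a log2 fold change of 0.72 (SE 0.11, limma adjusted p = 0.00474). The implied reads behind it were 10778 and 11985 in melanotropes and 4443 and 10304 in corticotropes, so the level is well counted. Sox1, a close relative, had 0.355 and 0.415 FPKM in melanotropes and was listed at 0 in both corticotrope libraries. Sox1 was under the filter and was not tested.

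SOX4, SOX11 and SOX12 form the SOXC group, which acts in neural and endocrine progenitors and in cells that begin to differentiate. Sox11 (chr12:27334268-27342718) had 4.54 and 5.04 FPKM in melanotropes, against 1.29 and 1.36 FPKM in corticotropes. It was high in both melanotrope libraries with no overlap, at 3.62 times the corticotrope mean (log2 fold change 1.32, SE 0.09, limma adjusted p = 0.00031). Sox4 (chr13:28950730-28953682), the most abundant of the 3, had 19.1 and 23.0 FPKM in melanotropes, against 16.7 and 19.96 FPKM in corticotropes. Its libraries overlapped and it was not called (log2 fold change 0.19, interval -0.11 to 0.50). In the GENCODE annotation of GRCm38, 54.6% of the 4795 Sox4 exon bases lie opposite a long noncoding gene, Gm26735. The Sox4 transcript measured here has 2950 bases, and its own share was not computed. Without stated strand counting, reads of the 2 genes cannot be told apart where they overlap. Sox12 (chr2:152393612-152398046) had 1.86 and 1.86 FPKM in melanotropes, against 2.51 and 2.30 FPKM in corticotropes. Its melanotrope libraries were the lower ones, with a log2 fold change of -0.25 that was not called (limma adjusted p = 0.0779).

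Within each library, Sox11 took 17.8% and 16.9% of the summed FPKM of the SOXC group in melanotropes, against 6.28% and 5.75% in corticotropes. Such shares do not depend on how libraries were scaled to each other. Sox4 took 74.9% and 76.9% in melanotropes, against 81.5% and 84.5% in corticotropes.

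SOX5, SOX6 and SOX13 form the SOXD group, which lacks a transactivation domain and modifies the action of other SOX proteins. Sox6 (chr7:115470872-115824710) had 1.17 and 1.07 FPKM in melanotropes, against 2.27 and 2.61 FPKM in corticotropes. Among the 8 tested SOX genes it was the one called lower in melanotropes, with no overlap and 2.18 times as much in corticotropes (log2 fold change -0.70, SE 0.10, limma adjusted p = 0.00352). Sox5 (chr6:143828425-144209568) had 2.49 and 1.89 FPKM in melanotropes, against 1.93 and 1.01 FPKM in corticotropes. Its libraries overlapped and it was not called (log2 fold change 0.39, interval -0.10 to 0.88), but it was called without corticotrope replicate 1 (0.62, limma adjusted p = 0.0272). Sox13 (chr1:133382300-133424212) had 2.13 and 1.75 FPKM in melanotropes, against 1.79 and 1.83 FPKM in corticotropes, and was not called (interval -0.19 to 0.32). The ratio of Sox5 to Sox6 within a library was 2.14 and 1.76 in melanotropes, against 0.850 and 0.387 in corticotropes. Sox5 thus exceeded Sox6 in both melanotrope libraries and lay under it in both corticotrope libraries. The pair was chosen after its values were seen.

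In the SOXE group, Sox9 (chr11:112782210-112787757) acts in cartilage, gonads, glia and progenitors. It had 1.25 and 1.22 FPKM in melanotropes, against 0.546 and 0.571 FPKM in corticotropes. Both melanotrope libraries were higher, by 2.21 times in the mean (log2 fold change 0.52, SE 0.09), and the gene passed the filter only through melanotropes. The call was lost without corticotrope replicate 1 (adjusted p = 0.0511) or without corticotrope replicate 2 (adjusted p = 0.0533), and the gene fell under the filter without either melanotrope library. Sox8 had 0.343 and 0.330 FPKM in melanotropes, against 0.513 and 0.459 FPKM in corticotropes, and Sox10, which marks Schwann cells and oligodendrocytes, was under 0.1 FPKM in all 4 libraries. The ratio of Sox9 to Sox8 was 3.63 and 3.70 in melanotropes, against 1.06 and 1.25 in corticotropes. Sox8 was under the filter, and this ratio carries the difference that the filter built into Sox9, so it is a description.

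**Figure D3:**
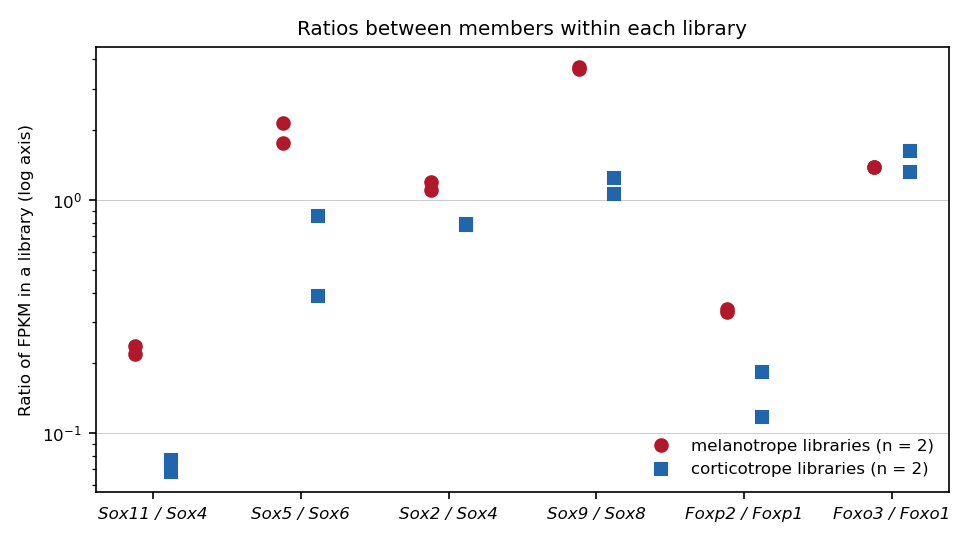
Ratios of FPKM between related members within each library, on a log axis. Sox11 over Sox4, Sox5 over Sox6, Sox2 over Sox4 and Foxp2 over Foxp1 were higher in both melanotrope libraries than in both corticotrope libraries. So was Sox9 over Sox8, where Sox9 passed the filter only through melanotropes. Foxo3 over Foxo1 overlapped.

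Markers of pituitary progenitors and folliculostellate cells, which carry SOX2 and SOX9, were read beside these genes. Of 13 listed, 8 were tested, 3 were higher in melanotropes, 2 were lower and 3 were not called, against 18.9% higher and 18.3% lower of all genes. Without corticotrope replicate 2, melanotrope replicate 1 or melanotrope replicate 2, 1 was lower, and without rescaling 4 were. The list summed to 314.9 and 312.8 FPKM in melanotropes, against 117.7 and 135.4 FPKM in corticotropes, mostly through the keratins. Krt8, an epithelial keratin, had 83.2 and 83.7 FPKM in melanotropes, against 20.1 and 22.2 FPKM in corticotropes. S100b, a marker of folliculostellate cells, was low, with 0.24 and 0.16 FPKM in melanotropes against 0.16 and 0.16 FPKM in corticotropes. Aldh1a2, a retinoic acid synthesis enzyme, had 1.07 and 1.47 FPKM in melanotropes, against 12.4 and 16.5 FPKM in corticotropes. The part of progenitor RNA in the Sox2 and Sox9 differences was not tested.

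Proteins that act with SOX factors, namely beta-catenin, TCF and LEF factors, POU factors and the TLE corepressors, were given by a list of 12. Of the 5 tested, 1 was higher, 1 was lower and 3 were not called, against 18.9% higher and 18.3% lower of all genes. Tle3, a Groucho-type corepressor, had 29.7 and 32.7 FPKM in melanotropes, against 5.48 and 6.09 FPKM in corticotropes (log2 fold change 2.25, limma adjusted p = 6.01e-05). Its relative Tle1 had 5.27 and 4.63 FPKM in melanotropes, against 7.02 and 7.62 FPKM in corticotropes (log2 fold change -0.49, limma adjusted p = 0.011). The call of Tle1 was lost without melanotrope replicate 2, where 0 genes of the list were lower. Without corticotrope replicate 2 the list had 2 higher and 2 lower, and without rescaling 1 higher and 3 lower.

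The 2 tested T-box genes, Tbx3 and Tbx15, passed the filter only through melanotropes, so their values are a description. Tbx3 (chr5:119670862-119684724), a repressor that acts in limb, heart and stem cells, had 2.15 and 1.93 FPKM in melanotropes, against 0.414 and 0.398 FPKM in corticotropes. The melanotrope mean was 5.03 times the corticotrope mean with no overlap (log2 fold change 1.11, SE 0.10). Tbx15 (chr3:99253760-99354260), which acts in skeletal and dermal development, had 2.17 and 1.97 FPKM in melanotropes, against 0.562 and 0.554 FPKM in corticotropes. It was 3.71 times as high in melanotropes with no overlap (log2 fold change 0.98, SE 0.09). Without either melanotrope library both genes fell under the filter. The implied reads for Tbx3 were 1962 and 1765 in melanotropes and 274 and 505 in corticotropes.

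The other 11 T-box genes were under the filter. Tbx2, the close relative of Tbx3, had 0.949 and 0.855 FPKM in melanotropes, against 0.149 and 0.130 FPKM in corticotropes. Tbx20 had 0.332 and 0.232 FPKM in melanotropes, against 0.0910 and 0.0865 FPKM in corticotropes. Both lay higher in each melanotrope library, and both were named after their values were seen. Tbx6, a mesoderm factor, had 0.480 and 0.318 FPKM in melanotropes, against 0.662 and 0.537 FPKM in corticotropes. The summed T-box level was 6.30 and 5.51 FPKM in melanotropes, against 2.03 and 1.88 FPKM in corticotropes, with Tbx3 and Tbx15 as the largest parts in melanotropes.

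Mesenchymal cells carry FOXC and TBX2-group factors, and glia and pituicytes carry SOXE factors, so their markers were set beside these genes. Of 10 pericyte and fibroblast markers, 6 were tested, 3 were higher, 1 was lower and 2 were not called, against 18.9% higher and 18.3% lower of all genes. The 10 markers summed to 21.9 and 18.8 FPKM in melanotropes, against 10.7 and 12.5 FPKM in corticotropes. Of these calls, 2 higher and 1 lower passed the filter through 1 cell type only. Without melanotrope replicate 1 or 2, 4 were tested and 1 was higher. Dcn, a matrix proteoglycan of fibroblasts, had 9.94 and 7.01 FPKM in melanotropes, against 2.46 and 2.93 FPKM in corticotropes. Of 11 glia and pituicyte markers, 4 were tested, 3 were higher and 1 was not called, against 18.9% higher and 18.3% lower of all genes. Their median log2 fold change was 1.55. It was 1.15 without melanotrope replicate 1 and 1.28 without melanotrope replicate 2, over fewer tested genes. With no filter it was 0.034 over all 11, with 5 higher and 1 lower. Among all 20297 genes of that fit, 2434 were higher and 2686 lower. The 11 markers summed to 22.6 and 24.9 FPKM in melanotropes, against 7.12 and 7.65 FPKM in corticotropes. Rax, a factor of the ventral hypothalamus and pituicytes, had 2.71 and 2.93 FPKM in melanotropes, against 0.01 and 0.03 FPKM in corticotropes, and passed the filter only through melanotropes. The summed levels of both marker lists were higher in melanotropes, like Tbx3, Tbx15, Foxc1 and Sox9. The part of these cells in the differences was not tested.

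**Figure D4:**
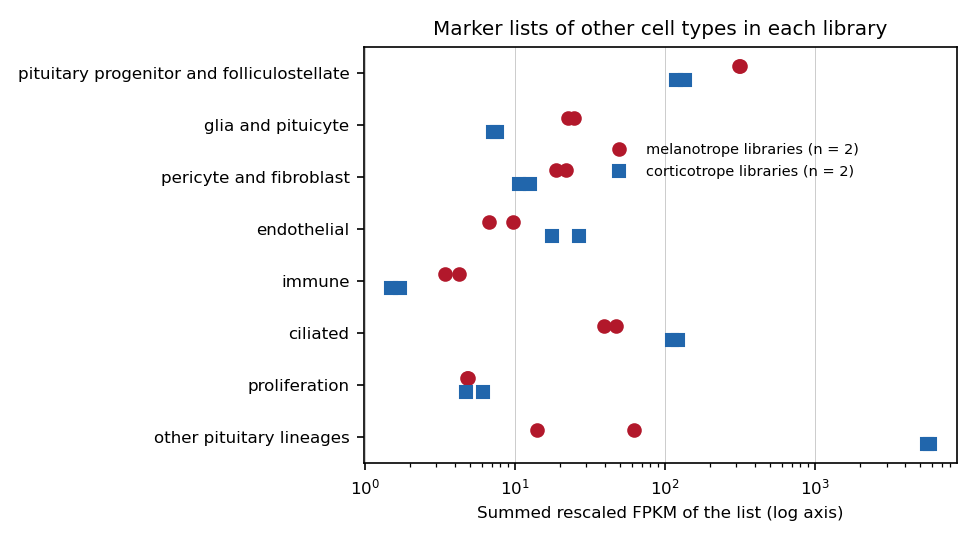
Summed rescaled FPKM of each marker list in each library on a log axis, melanotropes and corticotropes as separate points. The sums of the progenitor, glial, mesenchymal and immune lists were higher in melanotropes. Those of the endothelial, ciliated and other pituitary lineage lists were higher in corticotropes, and the proliferation sums overlapped. A sum can rest on a few abundant genes.

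Among the forkhead genes, 2 were higher in melanotropes, 2 were lower and 12 were not called, against 18.9% higher and 18.3% lower of all genes. The summed forkhead level was 106.7 and 111.9 FPKM in melanotropes, against 116.2 and 122.5 FPKM in corticotropes. Foxc1 (chr13:31806646-31810635), which acts in mesenchyme, vessels and the eye, had 2.32 and 2.52 FPKM in melanotropes, against 0.968 and 1.05 FPKM in corticotropes. It was higher in both melanotrope libraries, by 2.40 times in the mean (log2 fold change 0.77, SE 0.09, limma adjusted p = 0.00192).

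The FOXP group, whose members bind DNA as dimers and mostly repress, differed within itself. Foxp2 (chr6:14901349-15441977), known from brain and lung development, had 2.23 and 2.37 FPKM in melanotropes, against 1.61 and 1.08 FPKM in corticotropes. It was higher in both melanotrope libraries (log2 fold change 0.50, SE 0.13, limma adjusted p = 0.0301). Foxp1 (chr6:98925342-99435345) had 6.55 and 7.19 FPKM in melanotropes, against 8.81 and 9.20 FPKM in corticotropes. It was lower in both melanotrope libraries, with 1.31 times as much in corticotropes (log2 fold change -0.35, SE 0.08, limma adjusted p = 0.0231). Foxp4 (chr17:47867133-47924632) had 3.20 and 3.51 FPKM in melanotropes, against 5.21 and 4.47 FPKM in corticotropes. It was also lower in both melanotrope libraries (log2 fold change -0.42, SE 0.10, limma adjusted p = 0.023). Each of these 3 calls was lost when some single libraries were left out. Foxp2 lost its call without corticotrope replicate 2 (log2 fold change 0.32), melanotrope replicate 1 (0.54) or melanotrope replicate 2 (0.49). Foxp1 lost it without corticotrope replicate 2 (-0.34), melanotrope replicate 1 (-0.28) or melanotrope replicate 2 (-0.40), and Foxp4 without corticotrope replicate 1 (-0.35), melanotrope replicate 1 (-0.37) or melanotrope replicate 2 (-0.47).

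Foxp2 made up 15.8% and 15.5% of the summed FOXP level in melanotropes, against 8.95% and 6.40% in corticotropes. Foxp3 (chrX:7579676-7595243), the factor of regulatory T cells, had 2.17 and 2.19 FPKM in melanotropes, against 2.38 and 2.16 FPKM in corticotropes, and was not called. Its exons share bases with Ccdc22, Ppp1r3f, Flicr and Gm36995 in GENCODE, so its level is uncertain. Of the 10 immune markers, 1 (Csf1r) was tested, which passed the filter only through melanotropes, and 0 were tested without either melanotrope library. The list summed to 3.41 and 4.23 FPKM in melanotropes, against 1.497 and 1.72 FPKM in corticotropes. The T cell marker Cd3e was at or under 0.01 FPKM in all 4 libraries, and Tbx21 and Eomes, factors of T and natural killer cells, were under 0.1 FPKM.

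The 4 FOXO genes, which link growth factor signals to cell cycle arrest, survival and stress resistance, were all expressed and 0 of 4 were called by limma (2 at an unadjusted p under 0.05). Foxo3 (chr10:42185786-42276742) had 12.5 and 14.8 FPKM in melanotropes, against 16.0 and 19.3 FPKM in corticotropes (log2 fold change -0.34, interval -0.65 to -0.04, limma adjusted p = 0.0762). Foxo1 (chr3:52268337-52350109) had 9.05 and 10.7 FPKM in melanotropes, against 12.2 and 11.9 FPKM in corticotropes (log2 fold change -0.26, limma adjusted p = 0.0833). Both lay lower in both melanotrope libraries, short of the threshold. Foxo3 was called without corticotrope replicate 1 (log2 fold change -0.51, limma adjusted p = 0.0236), and both were called without rescaling. Foxo4 had 5.62 and 6.57 FPKM in melanotropes, against 5.94 and 6.97 FPKM in corticotropes, and overlapped. Foxo6 had 5.82 and 6.02 FPKM in melanotropes, against 5.49 and 5.52 FPKM in corticotropes, with a log2 fold change of 0.09 (interval -0.10 to 0.28). The ratio of Foxo3 to Foxo1 was 1.38 and 1.38 in melanotropes, against 1.31 and 1.63 in corticotropes, and the melanotrope values lay between those of corticotropes.

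The genes that act on FOXO proteins, from insulin receptor to AKT and SGK kinases, were split. Of 16 tested, 4 were higher in melanotropes, 6 were lower and 6 were not called, against 18.9% and 18.3% of all genes. Without rescaling 1 was higher and 11 were lower, and 2 were higher without corticotrope replicate 2 or melanotrope replicate 2. Igf1r, the IGF receptor, had 14.7 and 14.3 FPKM in melanotropes, against 7.73 and 6.10 FPKM in corticotropes (log2 fold change 0.98, limma adjusted p = 0.00169). Pik3r1, a regulatory subunit of PI3 kinase, had 15.8 and 16.2 FPKM in melanotropes, against 39.4 and 42.0 FPKM in corticotropes (log2 fold change -1.29, limma adjusted p = 0.000154). Sgk3, a kinase that phosphorylates FOXO3, had 2.13 and 1.59 FPKM in melanotropes, against 9.45 and 9.001 FPKM in corticotropes (log2 fold change -1.85, limma adjusted p = 0.000206).

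Of 18 genes known as FOXO targets in other tissues, 16 were tested, 2 were higher, 9 were lower and 5 were not called, against 18.9% higher and 18.3% lower of all genes. The median log2 fold change was -0.61, against 0.00092 over all genes. Without corticotrope replicate 2 the median was -0.29 with 7 lower, and without rescaling it was -1.03 with 13 lower. Cdkn1a, the cell cycle inhibitor p21, had 0.38 and 0.31 FPKM in melanotropes, against 4.09 and 3.18 FPKM in corticotropes. It passed the filter only through corticotropes, so a difference was built in. Sesn3, a stress-induced sestrin, had 27.1 and 29.7 FPKM in melanotropes, against 60.7 and 56.2 FPKM in corticotropes (log2 fold change -1.02, limma adjusted p = 0.000514). The 2 that were higher were Bcl2l11, a promoter of apoptosis, with 3.24 and 3.87 FPKM in melanotropes against 1.43 and 1.58 FPKM in corticotropes, and Pink1, a kinase of mitochondrial quality control. Pink1 had 48.9 and 54.9 FPKM in melanotropes, against 26.5 and 31.0 FPKM in corticotropes. Many of these genes respond to other regulators too, and RNA of other lineages moved with the same contrast; its part was not tested.

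The FOXJ, FOXK and FOXN genes gave no call. Foxj1, the factor that starts motile cilia, had 1.30 and 1.97 FPKM in melanotropes, against 1.28 and 2.36 FPKM in corticotropes, and its libraries overlapped (log2 fold change -0.08, interval -0.61 to 0.45). Of 7 ciliated-cell markers in the table, 5 were tested and 3 were lower in melanotropes, against 18.3% lower of all genes. Without rescaling 5 were lower. Their median log2 fold change was -0.42, and -0.33 without corticotrope replicate 1 or -0.32 without melanotrope replicate 2. The 7 markers summed to 39.5 and 47.6 FPKM in melanotropes, against 111.3 and 122.2 FPKM in corticotropes. Foxj3 had 14.4 and 13.2 FPKM in melanotropes, against 14.2 and 16.0 FPKM in corticotropes, and Foxj2 had 5.48 and 5.68 FPKM against 5.88 and 5.78 FPKM. Foxk2, a glycolysis and autophagy regulator, had 16.9 and 17.3 FPKM in melanotropes, against 16.6 and 16.7 FPKM in corticotropes, with an interval of -0.14 to 0.21. Foxk1 had 5.16 and 4.54 FPKM in melanotropes, against 5.43 and 5.46 FPKM in corticotropes. Foxn3, a checkpoint factor, had 7.94 and 8.14 FPKM in melanotropes, against 9.26 and 9.17 FPKM in corticotropes (log2 fold change -0.18, limma adjusted p = 0.117), and Foxn2 had 4.73 and 4.09 FPKM against 3.72 and 4.08 FPKM.

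The 49 members under the filter were low in all libraries. In 34 every library was under 0.1 FPKM, in 5 the highest lay between 0.1 and 0.3 FPKM, and in 10 a library reached 0.3 FPKM. Sox14, Sox21, Foxa2, Foxb2, Foxd3 and Foxd4 were listed at 0 in all 4 libraries. Sox30, a testis factor, had 0.103 and 0.159 FPKM in melanotropes, against 0.629 and 0.563 FPKM in corticotropes, and was chosen after its values were seen. The SOXF genes, which mark endothelium, summed to 0.400 and 0.428 FPKM in melanotropes, against 0.463 and 0.753 FPKM in corticotropes. Of 10 endothelial markers 6 were tested, 4 were lower in melanotropes and 2 were not called, with 1 lower without corticotrope replicate 2. Over all genes 18.9% were higher and 18.3% lower. Emcn, 1 of the 4 lower, and Pecam1, not called, passed the filter only through corticotropes. For both a difference was built in. The endothelial list summed to 9.79 and 6.74 FPKM in melanotropes, against 17.6 and 26.9 FPKM in corticotropes, and its part in the SOXF levels was not tested. The 8 proliferation markers, of which 1 was tested and not called, summed to 4.89 and 4.83 FPKM in melanotropes, against 4.72 and 6.14 FPKM in corticotropes. Foxm1, a factor of cycling cells, had 0.309 and 0.293 FPKM in melanotropes, against 0.289 and 0.286 FPKM in corticotropes.

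**Figure D5:**
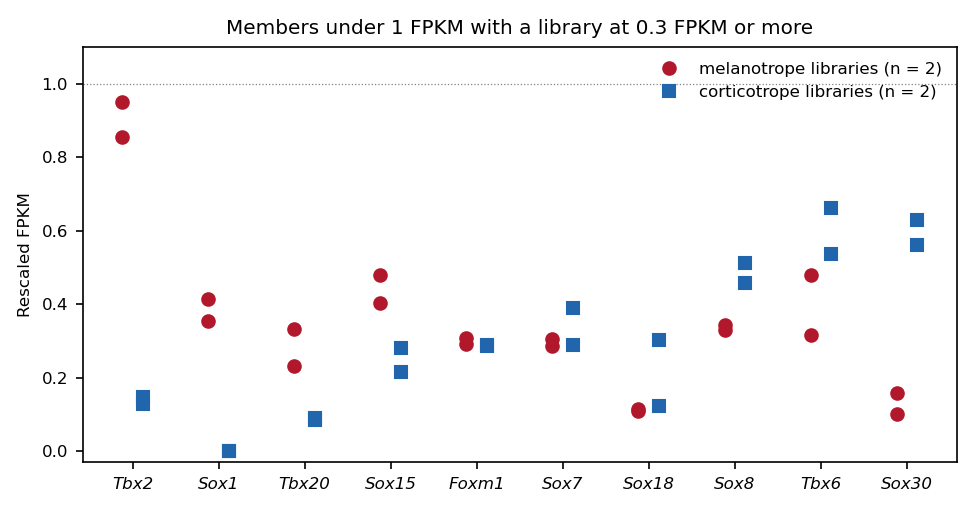
Rescaled FPKM of members under the filter with a library at 0.3 FPKM or more, melanotropes and corticotropes as separate points. Tbx2 and Tbx20 lay higher in both melanotrope libraries, Sox30 and Sox8 lay higher in both corticotrope libraries, and Sox1 is listed at 0 in corticotropes.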

How the data were processed

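Per the labels, RNA of sorted cells was depleted of ribosomal RNA and sequenced in pairs. FPKM values per RefSeq transcript on mm10, by exon counting, were made by the authors with HOMER, per the file headers, and were deposited to 2 decimals with nearly equal column sums, so a dominant gene lowers all others. The authors also deposited a log2 fold change, a p-value and an FDR for each transcript. TopHat, HOMER and edgeR are named by the submitters' processing notes. Their versions and the use of strand were not given.

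Because the columns hold FPKM, no count test was run. Columns were divided by trimmed means of M values, without weights (30% of M and 5% of A trimmed): 0.874 and 0.819 for melanotropes, 1.21 and 1.16 for corticotropes. Genes with at least 1 rescaled FPKM in 2 libraries entered a limma fit (version 3.58.1, R 4.3.3, trend, two-sided, Benjamini-Hochberg over 13046 genes, threshold 0.05) on log2(FPKM + 1), which understates the change of low genes. Residual degrees of freedom were 2. Members at a mean of 1 FPKM or more in either cell type, and up to 2 genes per direction and list, were named; others were named after their values were seen. The members and lists were chosen with earlier results of these data known. Some list members are not reported here. Coordinates are those of the table on mm10, counted from 1. Exon overlaps came from GENCODE vM21, and promoters from RefSeq GRCm38.p6. Other scalings, pseudocounts, filters, transcripts and prior variances, a replicate block and leave-one-out fits were run as alternatives.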

Additional observations from a re-analysis of the deposited data

How the results depend on the processing

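Of the 10 calls, Sox11, Sox2, Sox6 and Foxc1 kept theirs in all 13 alternatives. On the deposited scale the median of all genes shifted by -0.42, 9726 genes were called, and 20 members were called, 14 of them lower. There Sox4 (-0.27), Sox13 (-0.25), Foxk2 (-0.42), Foxn2 (-0.25) and Foxo6 (-0.32) reversed, none being a call before. Foxp2 also lost its call there (0.19, limma adjusted p = 0.271) and by the transcript with the highest mean (adjusted p = 0.0600). With no filter 5 of 69 members were lower and 10 higher, beside 2686 lower and 2434 higher of 20297 genes. The calls of Foxp2 and Foxp4 were lost there. Leaving out 1 library gave 3076 to 3425 genes called, 4 to 10 members called, 3 to 7 higher and 1 to 3 lower. Across these fits 4 uncalled genes changed sign, Foxj1 (-0.38 to 0.18), Foxk2 (-0.0043 to 0.059), Foxo4 (-0.20 to 0.033) and Sox13 (-0.029 to 0.16). The replicate block called 15 members, 9 higher and 6 lower, adding Foxo1, Foxo3 and Sox12 (lower) and Sox4 and Sox5 (higher), and 7203 of all genes, but the replicate numbers are only shared numbers in the labels, with deviations correlated at 0.52 over genes. Genes under about 1 FPKM rest on values rounded to 2 decimals. The causes of these shifts were not tested.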

Other observations

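Sox2ot, the long noncoding gene whose span holds Sox2 on the same strand, had 7.70 and 4.91 FPKM in melanotropes, against 2.07 and 1.65 FPKM in corticotropes (log2 fold change 1.33, limma adjusted p = 0.00374). It was higher in both melanotrope libraries, like Sox2, and shares no exon bases with it in GENCODE. Tbx3os2, beside Tbx3, had 0.274 and 0.305 FPKM in melanotropes, against 0.0331 and 0.0173 FPKM in corticotropes, under the filter.

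With no filter on low values, 15 of 69 members were called, beside 5120 of 20297 genes. Of the members under the filter, 7 were called by limma there. Tbx2 (log2 fold change 0.74), Sox1 (0.47), Tbx20 (0.23) and Sox15 (0.21) were higher in melanotropes, and Sox30 (-0.50), Foxh1 (-0.12) and Sox17 (-0.07) were lower. These are values under 1 FPKM, where the pseudocount shrinks each fold change.

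The authors' deposited table gave a log2 fold change of exactly 0 for 63 of 109 member transcripts. Its smallest FDR among them was 0.726, for Sox2, at a log2 fold change of 0.72 in the authors' deposited table. The authors' deposited table held 0 member transcripts with an FDR under 0.05 and 1 with a p under 0.05.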
